A study of Drosophila melanogaster with 90 samples.

Results

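The flight muscle sarcomere genes followed here are Act88F, up, TpnC4, wupA and Tm1 of the thin filament and Mhc, Mlc1, Mlc2, fln and Prm of the thick filament. Members were all probe sets whose platform annotation gives exactly 1 of these 10 symbols. The rule found 8 probe sets of 7 genes, among 18769 non-control probe sets and 11982 genes with a probe set of their own, 1 each for Act88F, up, TpnC4, Mlc1, Mlc2 and fln, and 2 for Prm, called Prm-a and Prm-s after the endings of their IDs (_a_at and _s_at). No probe set of Mhc (muscle myosin heavy chain), wupA (troponin I) or Tm1 (tropomyosin) passed the rule, and these 3 genes were not analysed here.

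The indirect flight muscles of Drosophila are assembled in the pupa, and the transcripts of their sarcomere proteins reach very high levels before the adult emerges. In the sarcomere, myosin of the thick filament pulls on actin of the thin filament, and the troponin and tropomyosin complex opens the actin sites when calcium binds. Flight muscle is also switched on by stretch, which depends on particular isoforms of thin and thick filament proteins.

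The 90 arrays hold RNA of pooled whole Oregon R pupae, a wild-type laboratory strain, kept in the devices from early to late pupa and collected just before emergence. The random positioning machine (RPM, 20 arrays in 6 groups) turns samples continuously so that gravity averages out, here named 0g, against 1g controls. The magnet (30 arrays in 10 groups) holds pupae, attached to paper, at positions where the effective gravity is 0g* (the levitation point of water), 1g* or 2g*, with 1g pupae outside the field. The large diameter centrifuge (LDC, 40 arrays in 16 groups) gave 12g and 6g, with a rotating 1g control (1g-rot) and a standing 1g control.

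The environments were open containers at constant temperature (no constraint), an earlier cold step in open containers (cold step), a closed container that limits oxygen (hypoxia), and both together (cold step and hypoxia). The study's list of arrays puts the cold step at 12 degrees C, though its methods text gives a different temperature. It lasted some days and came before the exposure. RPM groups had no environment with hypoxia alone, and pupae at 0g*, 1g* and 2g* were all in closed containers. All 3 altered positions of the magnet carry the strong field, which is strongest at 1g*, and the 0g pupae of the RPM and the 12g, 6g and 1g-rot pupae carry rotation. Groups hold 2 to 4 arrays, and since every array is a pool of whole pupae, fewer muscle cells and less RNA per muscle cell cannot be told apart. Array medians reached at most 5.15 on the RPM and 5.11 in the magnet, while those of the LDC started at 6.37, so levels were compared only within a facility. The titles call the arrays of a group biological replicates, and p-values measure the spread between these pools. 1 of the 2 arrays at 12g in cold step and hypoxia has no environment in its title and was placed by its other labels.

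The members were among the strongest signals of every facility. All 8 probe sets lay among the brightest of the array, with mean signals ranked between 5 and 427 of 18769 on the RPM. The ranks were 4 to 308 for the magnet and 1 to 372 for the LDC. The highest single value of any probe set in the LDC, 15.14, was an Act88F value. In the magnet Act88F averaged 13.70, where the highest value of any probe set was 13.97. Whether differences are compressed this near the top of the scale was not tested. The within-group SD of the 8 probe sets was 0.08 to 0.28 on the RPM, 0.04 to 0.18 for the magnet and 0.10 to 0.28 for the LDC. It was above the median SD of all probe sets (0.17, 0.21 and 0.21) for 5 of 8 members on the RPM, 0 in the magnet and 2 in the LDC. The means of the groups of a facility spanned 0.27 to 0.80 across the RPM, 0.12 to 0.50 across the magnet and 0.27 to 1.11 across the LDC, depending on the probe set. All these spreads are in log2 units.

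The groups were set against the 1g control of the same environment in 21 comparisons, 15 of altered gravity and 6 of the field (1g*) or rotation (1g-rot) alone. With limma and Benjamini-Hochberg adjustment over all probe sets, 4 of 168 member tests passed an adjusted p of 0.05, all of them in closed LDC containers: Mlc2 and Prm-a were higher and up was lower at 12g in hypoxia, and TpnC4 was higher at 6g after cold step and hypoxia. The other 13 comparisons of altered gravity had 0 member calls, and 10 of their 104 member tests had an unadjusted p under 0.05. The 6 field and rotation comparisons had 0 calls and 0 of 48 unadjusted p under 0.05 in limma. The 4 calls were all lost when the fit carried a term for a parallel second LDC experiment. Comparisons of a facility and environment share their 1g arrays.

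**Figure D1:**
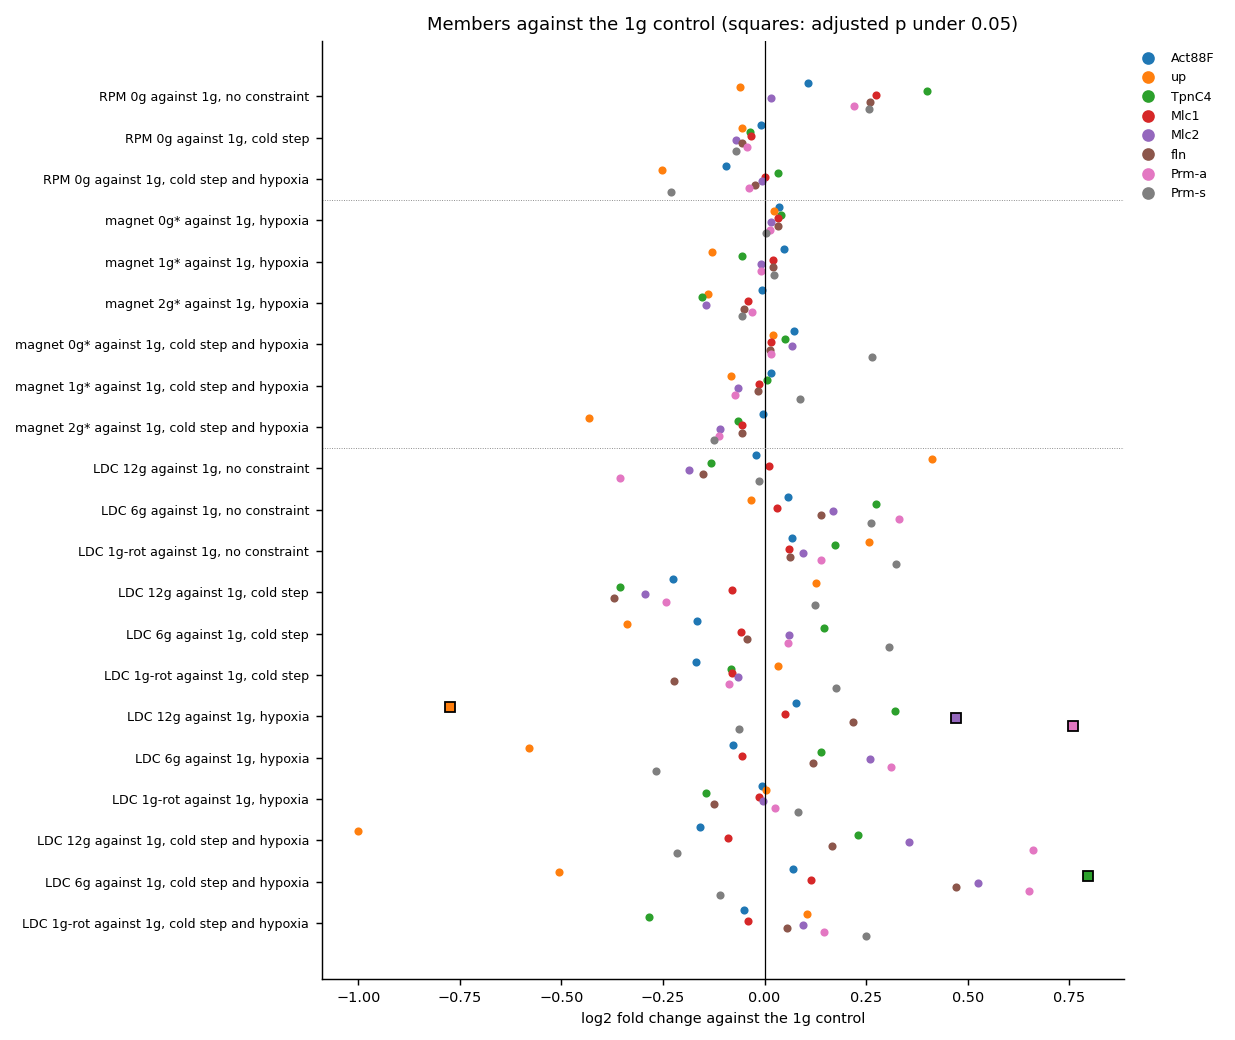
Log2 fold change of each member probe set (one symbol per probe set) against the 1g control of its environment, for 15 comparisons of altered gravity and 6 of field or rotation alone. Squares mark the 4 probe sets called at adjusted p under 0.05, 3 at 12g in hypoxia and 1 at 6g in cold step and hypoxia, both in the LDC.

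On the RPM, no member passed at 0g in any of 3 environments. Without constraint the members leaned upwards, with 7 of 8 fold changes above 0 and a median of 0.24, while the central 80 percent of all probe sets ran from -0.32 to 0.29. TpnC4, the troponin C isoform tied to stretch activation, read 12.06, 11.79 and 12.50 at 1g and 12.40, 12.52 and 12.63 at 0g. The groups overlapped through replicate 3 of 1g, and the difference was 0.40 with a standard error of 0.14 (adjusted p = 0.234). Flightin (fln), which stiffens the thick filament, read 12.90, 12.70 and 13.19 at 1g and 13.19, 13.18 and 13.20 at 0g. Again only replicate 3 of 1g reached the 0g values.

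Replicate 3 of 1g was the highest of its group for all 8 members and replicate 2 the lowest. The mean over the 8 probe sets was 12.2 in replicate 1, 12.0 in replicate 2 and 12.6 in replicate 3. Of the 18769 probe sets, 0.00533 percent were called in this comparison, and 2600 had an unadjusted p under 0.05. Among the members, 3 of 8 (Mlc1, TpnC4 and fln) had an unadjusted p under 0.05. Without replicate 3 of 1g, TpnC4 (0.59, adjusted p = 0.0326) and fln (0.39, adjusted p = 0.0472) passed. After the cold step the 8 fold changes lay between -0.07 and -0.01, with 95% intervals inside -0.51 to 0.37. After cold step and hypoxia they lay between -0.25 and 0.03. In both environments 0 percent of all probe sets were called and 0 members had an unadjusted p under 0.05 in limma.

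In the magnet the members differed from the closed 1g control by -0.43 to 0.26 over all 6 comparisons. Median fold changes in hypoxia were 0.03 at 0g*, 0.01 at 1g* and -0.05 at 2g*, and in cold step and hypoxia 0.04, -0.02 and -0.09. The farthest value was that of up, which encodes troponin T, the subunit that ties troponin to tropomyosin. It read 11.26, 11.37 and 11.64 at 1g and 11.15, 11.20 and 10.62 at 2g* in cold step and hypoxia. All 3 values at 2g* were below all 3 at 1g, but replicate 3 alone was far below, and the difference of -0.43 did not pass (adjusted p = 0.77). On the other side, Prm-s was 0.26 above 1g at 0g* in cold step and hypoxia. Limma called 0, 0.0107 and 0.416 percent of all probe sets at 0g*, 1g* and 2g* in hypoxia and 0.501, 0.0426 and 0.101 percent in cold step and hypoxia. It called 0 members, with 1 unadjusted p under 0.05 at 0g* and 1 at 2g*, both in cold step and hypoxia.

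In open LDC containers no member was called either. The array-wide share was 0.149 percent at 12g, 0 percent at 6g and 0.016 percent at 1g-rot without constraint, and 10.8, 0.213 and 0.0533 percent after the cold step. Among the members, 2 had an unadjusted p under 0.05 at 12g after the cold step and 0 in the other 5 open comparisons. The lowest fold change at 12g after the cold step was that of fln, -0.37, where 1g read 14.25, 14.63 and 14.84 and 12g read 14.28, 14.05 and 14.28. One 1g array, replicate 1, lay with the 12g arrays and the others above them. Without that array Act88F (-0.38, adjusted p = 0.0249), TpnC4 (-0.52, adjusted p = 0.0425) and fln (-0.53, adjusted p = 0.0149) were lower at 12g. Without replicate 1 of 1g in the no constraint environment, Prm-a was lower at 12g (-0.63, adjusted p = 0.0499).

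Those 2 control arrays belong to the first of the LDC experiments. The LDC work was done as 2 experiments, with 19 arrays from the first and 21 from the one run in parallel to it. Each open 1g and 1g-rot group held 1 array of the first experiment and 2 of the second, which allowed the members to be compared between experiments at matched gravity and environment. The first-experiment array was below both second-experiment arrays in 4 of 4 such groups for fln, Mlc1, Mlc2, TpnC4 and Prm-a, in 3 of 4 for Act88F and Prm-s, and in 1 of 4 for up. As a term in the LDC fit, the second experiment was higher by 0.44 for Mlc2 (adjusted p = 1.57e-05), 0.42 for fln (1.67e-05), 0.55 for Prm-a (2.32e-05), 0.47 for TpnC4 (9.97e-05), 0.33 for Prm-s (0.0154) and 0.21 for Act88F (0.0246). Mlc1 (0.14, adjusted p = 0.0866) and up (-0.21, adjusted p = 0.32) did not pass. The term called 6 of 8 members and 38.7 percent of all probe sets.

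Within 1 experiment, the median of the members had the other sign in all 4 open comparisons of 12g and 6g. At 12g, against the single first-experiment 1g array, it was 0.19 in place of -0.08 without constraint and 0.06 in place of -0.23 after the cold step, where fln stood at -0.05. At 6g, against the 1g arrays of the second experiment, it was -0.02 in place of 0.15 without constraint and -0.12 in place of 0.01 after the cold step. None of these fits called a member.

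In closed containers all 12g and 6g arrays are of the second experiment and all 1g and 1g-rot arrays of the first, so gravity and experiment cannot be told apart there. At 12g in hypoxia 3 of 8 members were called. Mlc2, the regulatory myosin light chain whose phosphorylation tunes stretch activation, read 13.82, 13.86 and 13.84 at 1g and 14.19, 14.36 and 14.38 at 12g. The groups did not overlap, and Mlc2 was 1.39-fold higher (log2 0.47, standard error 0.14, adjusted p = 0.0261). Prm encodes paramyosin and miniparamyosin of the thick filament core. Prm-a read 13.13, 12.90 and 13.21 at 1g and 13.87, 13.91 and 13.74 at 12g, again with every 12g array above every 1g array, a 1.69-fold rise (log2 0.76, standard error 0.18, adjusted p = 0.00573).

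Prm-s did not follow it. This probe set read 13.36, 13.12 and 13.34 at 1g and 13.16, 13.20 and 13.27 at 12g, a difference of -0.06 (adjusted p = 0.79), and the mean of both Prm probe sets differed by 0.35 (adjusted p = 0.107). Which Prm transcripts each probe set reads is not given in the sources used here. In the other direction, up read 12.44, 12.21 and 12.43 at 1g and 11.16, 11.47 and 12.13 at 12g. Its 12g arrays scattered widely but all lay below the 1g arrays (0.585-fold, log2 -0.77, standard error 0.23, adjusted p = 0.0206). Of all probe sets 17.5 percent were called in this comparison, 8.14 percent higher and 9.4 percent lower, and the median of all was -0.09 against 0.15 for the members.

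With the experiment term, which rests on the open control groups, Mlc2 differed by 0.03, Prm-a by 0.21 (adjusted p = 0.417) and up by -0.56 (adjusted p = 0.245), and 0 members were called. Leaving out 1 array kept Prm-a in all 6 fits, while only it was called without replicate 2 of 12g or replicate 1 of 1g. Accessory gland markers, genes of a male reproductive tissue, moved with this comparison. 4 of 5 were higher at 12g, with a median of 2.35, and their mean level ran over arrays from 5.89 to 6.75 at 1g and from 7.87 to 9.46 at 12g. Testis markers ran from 9.825 to 10.46 at 1g and from 9.74 to 11.1 at 12g. The part of either in the result was not tested.

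At 6g in hypoxia 4.42 percent of all probe sets and 0 members were called, and 1 member had an unadjusted p under 0.05. That member was up, which read 11.32 and 12.24 at 6g, 0.58 below 1g on average (adjusted p = 0.189). At 6g after cold step and hypoxia 1 of 8 members was called, beside 6.4 percent of all probe sets (2.45 percent higher). TpnC4 read 13.27 and 13.05 at 1g and 13.98 and 13.93 at 6g, a 1.74-fold difference (log2 0.80, standard error 0.20, adjusted p = 0.0171) with no overlap. With the experiment term it was 0.32 (adjusted p = 0.297). The call was also lost without either 6g array or without replicate 2 of 1g. Prm-a (0.65, adjusted p = 0.0716), Mlc2 (0.53, adjusted p = 0.0692) and fln (0.47, adjusted p = 0.0842) were above 1g on every array without passing. Prm-s went the other way, from 13.05 to 13.10 at 1g and from 12.90 to 13.03 at 6g. The mean of both Prm probe sets differed by 0.27 (adjusted p = 0.379). The up probe set was also below 1g, from 12.24 to 12.40 at 1g and from 11.70 to 11.93 at 6g. All 5 accessory gland markers were higher at 6g (median 5.33), with array levels from 4.96 to 5.02 at 1g and from 9.29 to 10.7 at 6g. Fat body markers ran from 12.6 to 12.7 at 1g and from 10.4 to 11.1 at 6g (1 of 3 lower), and photoreceptor markers from 10.2 to 10.3 and from 9.40 to 9.60 (2 of 3 lower). Testis markers ran from 10.14 to 10.35 at 1g and from 10.64 to 11.20 at 6g. The part of these markers in the result was not tested.

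At 12g after cold step and hypoxia 0 members and 0.421 percent of all probe sets were called, with 2 members at an unadjusted p under 0.05. The up probe set read 12.24 and 12.40 at 1g and 11.53 and 11.11 at 12g, with 12g at 0.5-fold of 1g (adjusted p = 0.0919), and Prm-a was 0.66 higher (adjusted p = 0.162). Both lay on the same side of 1g as in hypoxia alone, with 2 arrays a group instead of 3. Prm-s lay below 1g, from 13.05 to 13.10 at 1g and from 12.84 to 12.88 at 12g. The mean of both Prm probe sets differed by 0.22 (adjusted p = 0.646). For the rotating control no member passed in closed containers either, with 0 percent of all probe sets called in hypoxia, 0.00533 percent in cold step and hypoxia, and 0 members at an unadjusted p under 0.05 in limma. Since 1g-rot and 1g are of 1 experiment in closed containers, that comparison does not carry the experiment.

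Setting 12g against 6g in closed containers also stays within the second experiment, a comparison added after the others were seen. Of all probe sets 12.5 percent were called in hypoxia and 7.71 percent in cold step and hypoxia, with 0 members and 1 unadjusted p under 0.05 in each. In hypoxia the farthest member was Prm-a, 0.45 higher at 12g. In cold step and hypoxia it was TpnC4, with -0.57 at 12g, where its arrays read 13.56 and 13.22 against 13.98 and 13.93 at 6g. When the fit carried the experiment term, which here only changes the estimate of the spread, Prm-a (adjusted p = 0.0117) passed in hypoxia, and TpnC4 (adjusted p = 0.00702) and fln (-0.31, adjusted p = 0.0482) passed in cold step and hypoxia.

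**Figure D2:**
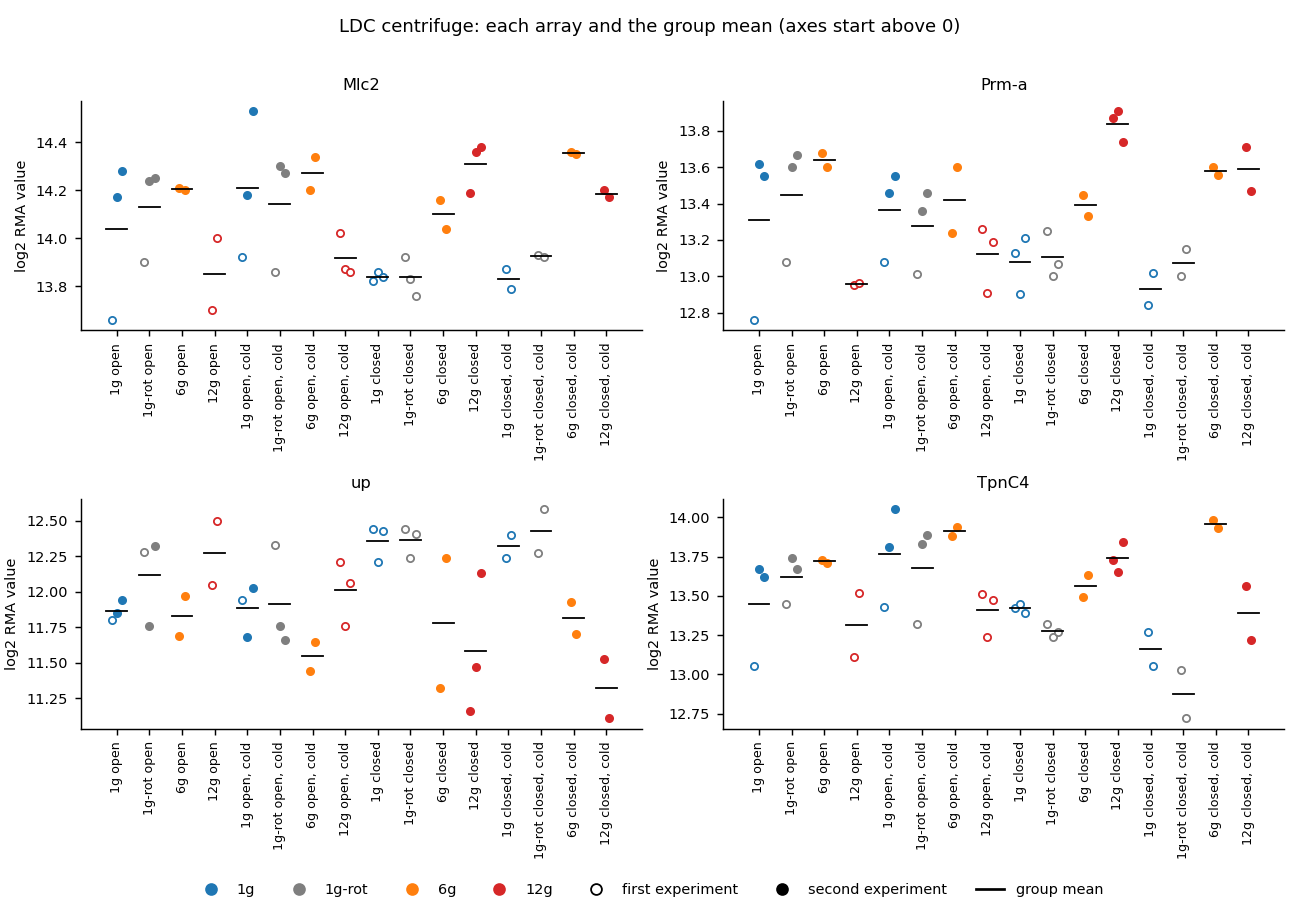
Log2 signal of Mlc2, Prm-a, up and TpnC4 on each LDC array, by gravity and environment. Open circles are arrays of the first experiment and filled circles of the second. In open controls the open circle lies below the filled ones for Mlc2, Prm-a and TpnC4.

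The difference between environments in the response to 12g was tested as an interaction. Between hypoxia and no constraint 3 members passed: Mlc2 (0.66, standard error 0.22, adjusted p = 0.0427) and Prm-a (1.12, standard error 0.27, adjusted p = 0.0132) with a more positive response in hypoxia, and up (-1.19, standard error 0.34, adjusted p = 0.0257) with a more negative one. For the mean of both Prm probe sets the interaction was 0.53 (adjusted p = 0.102). Without constraint the 12g arrays read 13.70 and 14.00 for Mlc2 against 13.66, 14.17 and 14.28 at 1g, and 12.05 and 12.50 for up against 11.80, 11.85 and 11.94 at 1g. Over the array 14.5 percent of probe sets passed, 5.93 percent upwards and 8.53 percent downwards.

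The 12g arrays are of the first experiment without constraint and of the second in hypoxia, and with the experiment term 0 members passed. The interaction of Mlc2 then had the other sign (-0.08), that of Prm-a was 0.20 and that of up -0.83. No member was called without replicate 2 of 1g in the no constraint group. Only Prm-a was called without replicate 1 or 2 of 12g in hypoxia or without replicate 1 of 1g in hypoxia.

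The other 7 interactions had 0 member calls, with 8 of 56 unadjusted p under 0.05, 5 of them at 12g between cold step and hypoxia and cold step. Without replicate 1 of the 1g cold step group, Mlc2 (0.79, adjusted p = 0.0300), Prm-a (1.05, adjusted p = 0.0282) and fln (0.70, adjusted p = 0.0344) passed there. That array was the only one of the first experiment in its group. Without it, 12g and 1g are of different experiments in both environments, in opposite order. Gravity and experiment cannot be told apart in that fit. The array-wide shares in these 7 were 3.91 percent for that comparison, 0.176 and 0.25 percent for 6g, 0 percent on the RPM, and 0, 0.016 and 0 percent at 0g*, 1g* and 2g*.

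The environment alone was read in 1g controls. The largest concerted difference of the members in these controls followed the cold step on the RPM, where all 8 probe sets were higher after the cold step than without it, against 13.6 percent of all probe sets called (7.07 percent higher). Act88F, the actin of the flight muscle thin filament, read 13.44, 13.35 and 13.60 without constraint and 13.74, 13.75 and 13.72 after the cold step, a rise of 0.27 (adjusted p = 0.0422). For fln the values were 12.90, 12.70 and 13.19 against 13.49, 13.45 and 13.52, a 1.47-fold rise (log2 0.56, standard error 0.10, adjusted p = 0.00336). Prm-s had the largest rise, 1.74-fold, from 11.16, 10.83 and 11.83 to 12.03, 12.06 and 12.14 (log2 0.80, standard error 0.21, adjusted p = 0.0179). For all 8 members every cold step array lay above every array without it, and the cold step arrays lay close together. Overlap was read for the members only, so counts without overlap, here and elsewhere, have no share of all probe sets beside them.

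The remaining members rose by 0.64 (up), 0.68 (TpnC4), 0.41 (Mlc1), 0.48 (Mlc2) and 0.70 (Prm-a), with adjusted p-values from 0.00594 to 0.0346. Mlc1 encodes the other light chain of muscle myosin, the essential or alkali chain. The median over the members was 0.60, while the central 80 percent of all probe sets ran from -0.41 to 0.46. Calls for TpnC4 and fln held in all 13 alternative settings. The number called fell to 2 when the 2 groups were fitted alone. It was 3 without replicate 1 and 2 without replicate 2 of the no constraint group, and 5, 4 and 3 without replicates 1, 2 and 3 of the cold step group.

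These no constraint arrays are the ones that also serve as control for 0g. At 0g, which has its own arrays, the cold step gave 0 calls (1.43 percent of all probe sets). The median was 0.32, with 5 of 8 members at an unadjusted p under 0.05 in limma. Every cold step array lay above every other array for 7 of 8, a count with no share of all probe sets beside it. Within RPM groups the members varied together (correlations from 0.33 to 0.92), so the 8 are not separate observations. The up probe set read 10.28, 10.56 and 10.37 without constraint and 10.97, 11.08 and 11.08 after the cold step, a difference of 0.64 (adjusted p = 0.0613). Fat body markers moved the other way in the 1g comparison: all 3 were lower after the cold step (median -0.61), with array levels from 12.8 to 13.2 without constraint and from 12.2 to 12.6 after it. Testis markers were higher, from 8.635 to 9.23 without constraint and from 9.28 to 9.60 after the cold step. Photoreceptor (8.21 and 8.83), accessory gland (4.08 and 5.48) and hemocyte markers (5.45 and 5.71) had higher means too, with overlapping arrays. Means for neurons were 5.18 and 5.25, and for midgut 5.88 and 5.73. The part of any of these markers in the result was not tested.

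**Figure D3:**
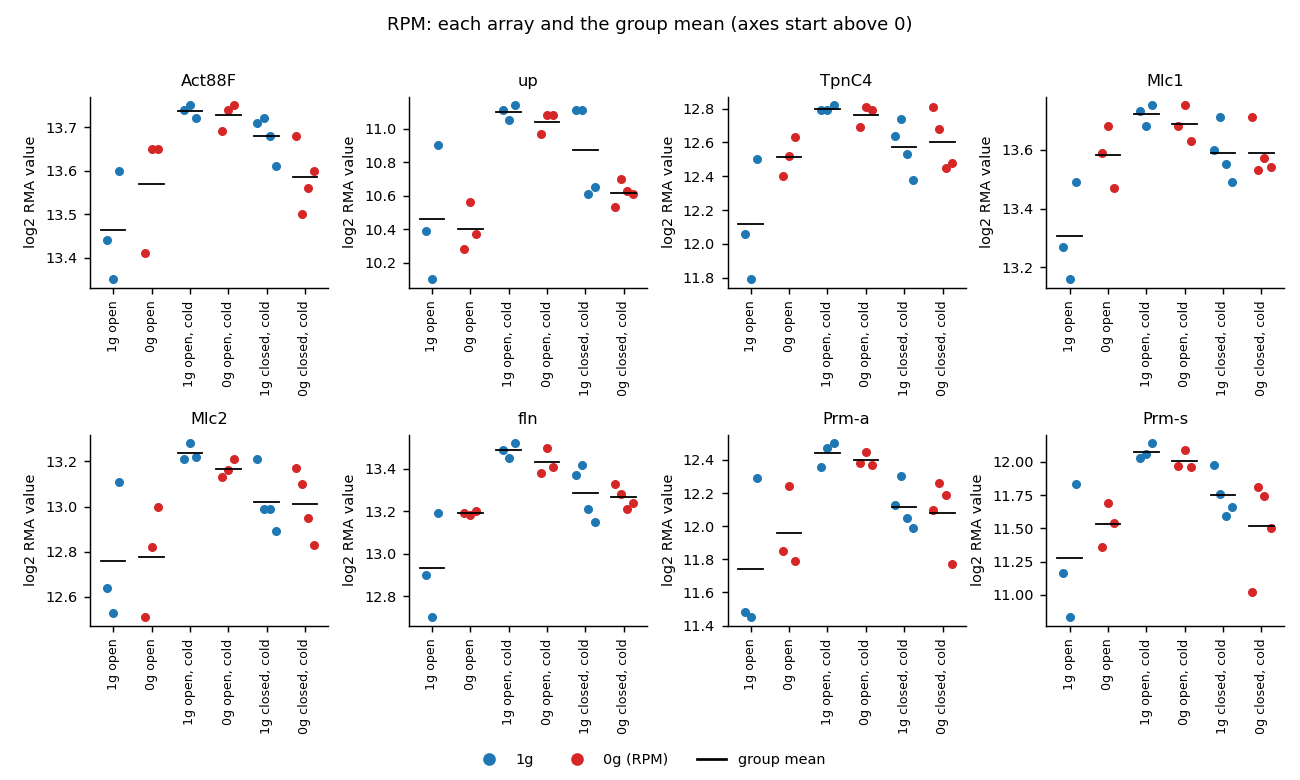
Log2 signal of the 8 member probe sets on each of the 20 RPM arrays, by gravity and environment. The 3 arrays of 1g after the cold step lie above the 3 arrays of 1g without constraint in every panel.

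In open magnet controls Mlc2 and Prm-a were lower after the cold step, while the other thick filament probe sets (Mlc1, fln and Prm-s) were not called. Mlc2 in open 1g containers read 13.54, 13.42 and 13.53 without the cold step and 13.12, 13.25 and 13.29 after it. The groups were apart, and Mlc2 fell by 0.28 (standard error 0.10, adjusted p = 0.0476). Prm-a read 12.49, 12.51 and 12.54 without the cold step and 11.90, 12.22 and 12.16 with it, lower by 0.42 (standard error 0.12, adjusted p = 0.0124). Prm-s differed by -0.07, and the mean of both Prm probe sets fell by 0.245 (adjusted p = 0.0448). These were 2 of 8 members, a share near the 21.8 percent of all probe sets called in either direction (10.6 percent lower). The other 6 lay between -0.14 and 0.29. The highest of them was up, with 11.10, 11.29 and 11.17 without the cold step and 11.46, 11.50 and 11.48 with it. Its groups were apart on every array but not past the threshold (adjusted p = 0.149).

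In closed containers only Mlc2 was called. It fell by 0.38 at 1g (13.41, 13.59 and 13.58 against 13.09, 13.22 and 13.14, adjusted p = 0.0105), beside 16.9 percent of all probe sets called (7.92 percent lower). At the positions inside the field, added after the 1g values were seen, Mlc2 fell by 0.43 at 1g* (adjusted p = 0.00223) and by 0.34 at 2g* (adjusted p = 0.0290). At 0g* the difference was -0.33 (adjusted p = 0.0504). Array-wide shares were 23.9 percent at 1g* (11.1 percent lower), 8.36 percent at 2g* (3.95 percent lower) and 5.94 percent at 0g*. The cold step difference of Mlc2 thus lay between -0.43 and -0.28 in 5 sets of arrays that share none, and the arrays with and without it did not overlap in any of the 5. All 5 are of 1 facility and 1 fit with a shared estimate of the spread, so they are not independent repeats of the cold step.

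The Mlc2 call at 1g* held in all 13 alternative settings. The open 1g counts went to 0 without replicate 1 of the cold step group and to 1 without replicates 1 or 3 of the no constraint group or 2 or 3 of the cold step group. In closed 1g containers the call was lost without replicate 2 of hypoxia or replicate 1 of cold step and hypoxia, and at 2g* without replicates 1 or 3 of hypoxia or 2 or 3 of cold step and hypoxia. At 0g* Mlc2 passed without replicate 1 of hypoxia (-0.36, adjusted p = 0.0457) or replicate 2 of cold step and hypoxia (-0.39, adjusted p = 0.0368). Accessory gland markers moved the same way as Mlc2, all 5 lower in the open controls (median -4.24) and all 5 in the closed ones (median -3.78). Their array levels ran from 6.01 to 7.85 without and 3.23 to 3.40 with the cold step in open containers. Midgut markers had a median of -1.57 there with 2 of 4 lower. Testis markers ran from 8.045 to 9.04 without and from 9.05 to 9.38 with the cold step in open containers. The part of any of these markers in the result was not tested.

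**Figure D4:**
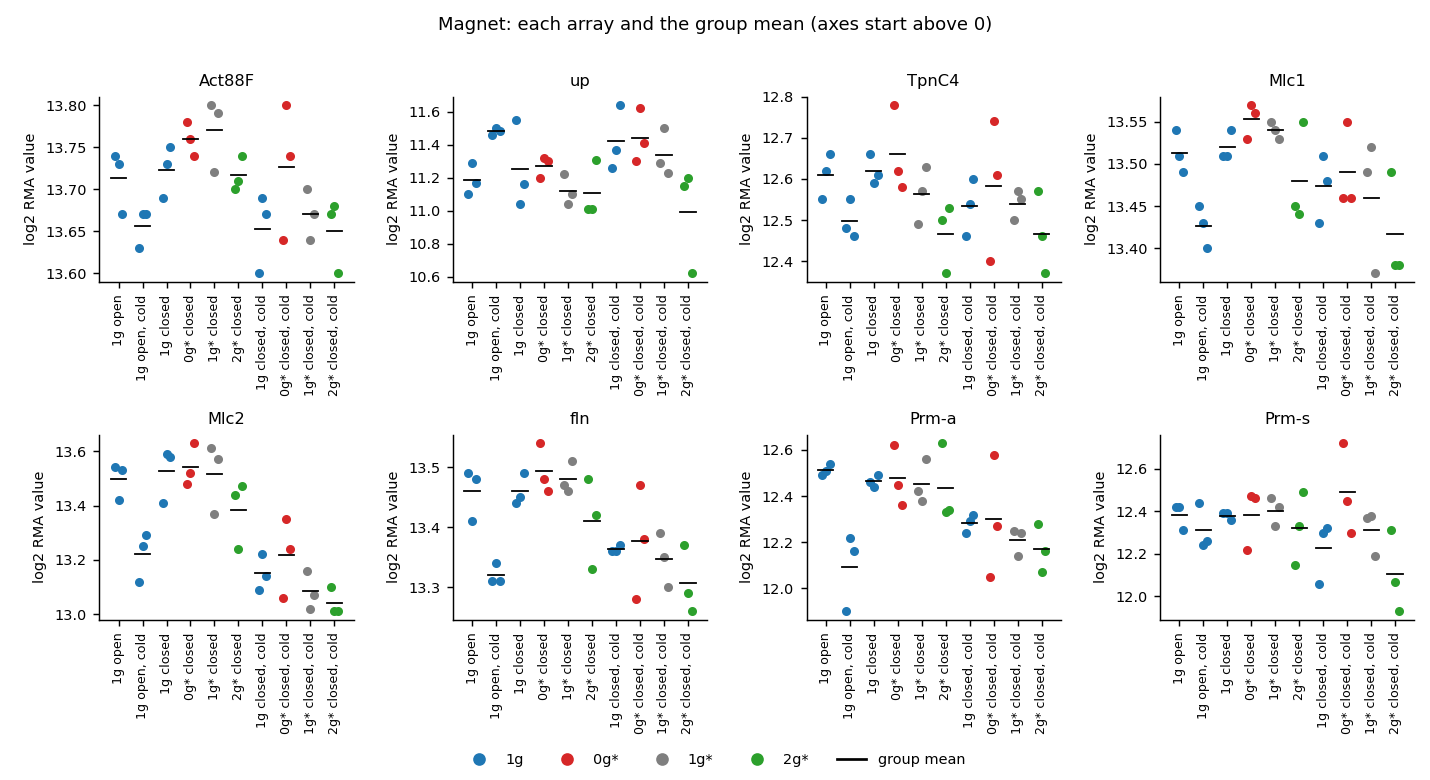
Log2 signal of the 8 member probe sets on each of the 30 magnet arrays, by position and environment. Mlc2 is lower in the groups with the cold step at every position, while the group means of Act88F span 0.12.

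In the LDC the cold step in open 1g containers went with higher Act88F. It read 14.38, 14.61 and 14.59 without and 14.62, 15.02 and 15.14 with the cold step, so that every cold step array was above every other, a 1.32-fold rise (log2 0.40, standard error 0.11, adjusted p = 0.0133). This was 1 of 8 members beside 16 percent of all probe sets called (6.55 percent higher). The next were fln (0.35, adjusted p = 0.0843) and TpnC4 (0.32, adjusted p = 0.212). Within the first experiment Act88F was higher by 0.24 (1 array each) and within the second by 0.48. With the experiment term Act88F (adjusted p = 0.00370), fln (0.00271) and TpnC4 (0.0383) were all called. After quantile normalization of the LDC arrays the difference of Act88F was 0.13 (adjusted p = 0.162). Its call was lost without replicate 1 of the no constraint group or replicates 2 or 3 of the cold step group, and fln and TpnC4 were called beside it without replicate 1 of the cold step group.

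Accessory gland markers were all higher in this comparison too (5 of 5, median 4.40), with array levels from 4.63 to 5.25 without and 8.85 to 9.82 with the cold step. Midgut markers had 3 of 4 higher (median 3.34). Testis markers ran from 9.275 to 10.4 without and from 10.3 to 10.8 with the cold step. The lowest array without the cold step had a fat body marker level of 12.8 and the highest with it 12.6 (median difference -1.05, 0 of 3 called). The part of these markers in the result was not tested. In closed 1g containers the LDC cold step gave 0 member calls and 0 members at an unadjusted p under 0.05 (limma), with 1.41 percent of all probe sets called. At 12g, 6g and 1g-rot in open containers it gave 0 calls and 0 unadjusted p under 0.05 as well, with 0.597, 22.8 and 20.4 percent of all probe sets called.

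**Figure D5:**
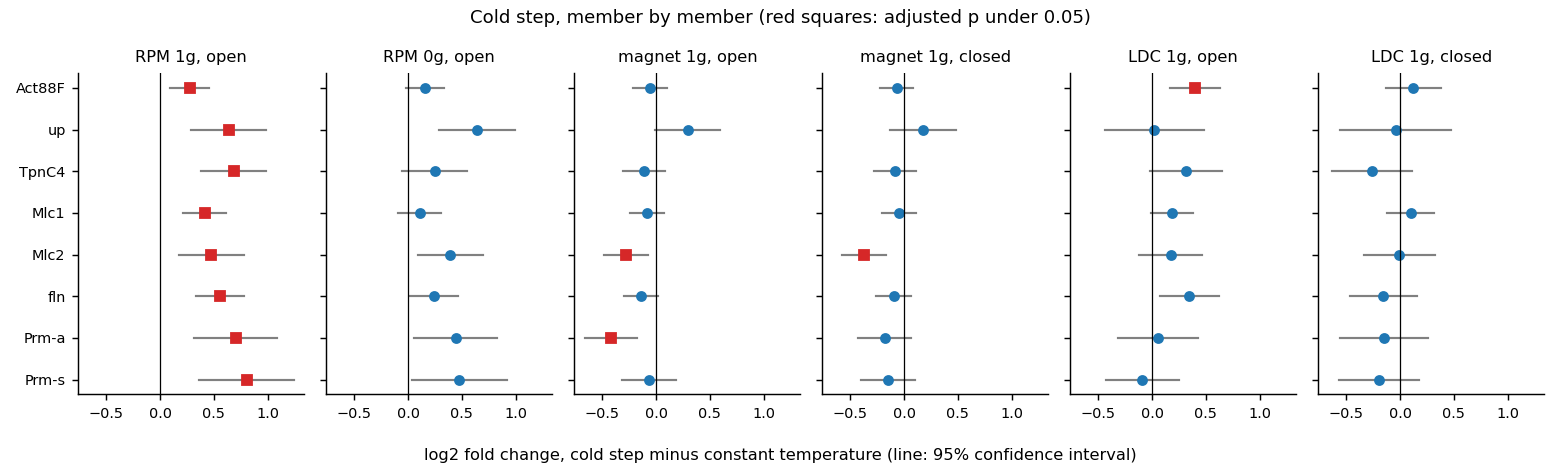
Log2 fold change of each member probe set with the cold step against without it, in sets of groups from the 3 facilities. Squares mark called probe sets: all 8 at 1g on the RPM, Prm-a and Mlc2 or Mlc2 alone in the magnet, and Act88F in open LDC controls.

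Closing the container gave no member call in the 1g controls. Limma called 0 members in all 5 comparisons, beside 0.00533 percent of all probe sets on the RPM, 0 and 1.58 percent in the magnet at constant temperature and after the cold step, and 3.86 and 3.63 percent in the LDC. At an unadjusted p under 0.05 there were 0 on the RPM and in the magnet, 2 in the LDC at constant temperature and 5 in the LDC after the cold step. The LDC comparison sets closed arrays of the first experiment against open arrays of both. Prm-s was 0.53 higher in closed containers at constant temperature (adjusted p = 0.0637), from 12.31, 12.87 and 13.05 to 13.36, 13.12 and 13.34 with no overlap. With the experiment term it passed (0.75, adjusted p = 0.0156), as it did after the cold step (0.64, adjusted p = 0.0455). It also passed at constant temperature without replicate 3 of the open group (0.68, adjusted p = 0.0433). Without replicate 1 of the open cold step group, Mlc2, Act88F, TpnC4 and fln were lower in closed containers after the cold step, by 0.38 to 0.77. That fit sets closed arrays of the first experiment against open arrays of the second only, so closure and experiment cannot be told apart in it.

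Other muscle genes were read from lists of 43 probe sets of 25 genes, covering further thin filament, thick and connecting filament, Z-disc, calcium and energy genes and muscle regulators. After the RPM cold step at 1g, where all members were higher, 20 of the 43 were higher and 2 lower, with a median of 0.53, beside 13.6 percent of all probe sets called (7.07 percent higher). The Z-disc list had 9 of 11 higher and 1 lower, led by Mlp60A, a LIM protein of the Z-disc (1.55, adjusted p = 0.00176). TpnC41C, another troponin C, was higher by 0.92 (adjusted p = 0.00231). The 2 lower probe sets belonged to genes that cap actin filaments at their ends, tmod (-1.11, adjusted p = 7.98e-04) and cpa (-0.47, adjusted p = 0.00715).

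In open magnet controls the cold step went with 5 higher and 15 lower of the 43, beside 21.8 percent of all probe sets called (10.6 percent lower). Glycerol-3-phosphate dehydrogenase (Gpdh1), which feeds the flight muscle's energy supply, fell by 1.56 (adjusted p = 1.06e-09). Zasp66, a Z-disc protein, fell by 1.37 (adjusted p = 5.16e-09). Argk1, arginine kinase, was higher by 0.49 (adjusted p = 3.25e-04). In the LDC the same step gave 7 higher and 3 lower of the 43, beside 16 percent of all probe sets called (6.55 percent higher), among them higher Gpdh1 (1.40) and Zasp66 (0.94) and lower cpb (-0.59), the partner of cpa in the actin capping protein.

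Under altered gravity the other muscle probe sets were called in 6 comparisons. At 12g in hypoxia 7 of 43 were higher and 0 lower, with a median of 0.19, beside 17.5 percent of all probe sets called (8.14 percent higher and 9.4 percent lower). Gpdh1 (0.81, adjusted p = 0.00128), Strn-Mlck, a myosin light chain kinase (0.61, adjusted p = 0.00655), tmod (0.83, adjusted p = 0.00958), the wing and muscle regulator vg (0.71, adjusted p = 0.0228) and Zasp52 of the Z-disc (0.57, adjusted p = 0.0358) were among them. At 6g after cold step and hypoxia 4 were higher (6.4 percent of all probe sets called), among them TpnC41C (0.96, adjusted p = 0.00247). At 6g in hypoxia 3 were lower (4.42 percent called), 2 of them Zasp66 probe sets, with the smaller adjusted p at -0.72 (7.02e-04), and at 12g after the cold step 3 were lower (10.8 percent called). In the magnet, with 0.416 and 0.501 percent of all probe sets called, 1 was higher at 2g* in hypoxia, sls of the connecting filament (0.64, adjusted p = 0.0202), and 1 at 0g* in cold step and hypoxia, Gpdh1 (0.62, adjusted p = 0.0185). The LDC values carry the experiment as those of the members do.

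Over the 32 group means, each centred on its facility, the members did not all run together. Correlations with the mean of the 8 probe sets, which each of them is part of, were 0.87 for fln, 0.80 for Mlc1 and Mlc2, 0.76 for Prm-a, 0.75 for TpnC4, 0.68 for Act88F, 0.59 for Prm-s and 0.16 for up. On the RPM up followed the mean (0.93), but in the magnet it did not (0.15) and in the LDC it ran against it (-0.36). Over the 16 LDC group means up correlated at -0.81 with Mlc2 and at -0.81 with Prm-a. Outside the members, the 8 named genes most like their mean were Gapdh1 (0.89), the muscle calcium pump SERCA (0.89), CG7430 (0.88), the aconitase mAcon1 (0.87), CG16935 (0.86), the pyruvate carrier Mpc1 (0.86), the complex I subunit ND-51 (0.86) and the glycolytic enzyme Pfk (0.85). These are descriptions over group means that share arrays, pools and the LDC experiments, and they carry no test.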

How the data were processed

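RNA of pools of whole late pupae was measured on Affymetrix Drosophila Genome 2 arrays. The deposited table holds log2 values that the authors made with RMA, per the submitters' processing notes, with the version not given in the sources used here. The medians of the LDC arrays lie above those of the other facilities, so every comparison stays within 1 facility.

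Of 18952 probe sets, 183 controls were left out and 18769 tested, of which 13647 have 1 symbol, 402 several and 4720 none. Groups came from the labels. Each facility had its own fit with 1 mean per group, made by lmFit and eBayes of limma (version 3.58.1, R version 4.3.3). Two-sided p-values were adjusted per comparison over all 18769 probe sets by Benjamini-Hochberg. Calls are adjusted p under 0.05. Overlap of groups and fold changes are on the log2 scale, with fold as its antilog. Calling was tested on simulated data. The number of arrays limits precision. Same-numbered arrays were taken as pairs only in LDC 1g-rot against 1g without constraint, where all 3 pairs deviated together (correlations 0.577, 0.570 and 0.207) and shared their LDC experiment. The block gave 0 member calls there as well.

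All listed members are named. Other genes named are up to 8 of the muscle lists with the smallest adjusted p under altered gravity, examples of a list's count, and the 8 genes most like the members' mean. The members and lists were chosen with earlier results of these data known. The muscle lists have no value here for Act57B, TpnC47D, TpnC25D, Unc-89, Mef2, bru1 and sd.

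Alternatives were quantile normalization, median centring, leaving out the dimmest 25 percent of probe sets, fitting the compared groups alone, eBayes with trend and robust, replicate number or array letter as a block, a term for the second LDC experiment, 1 experiment only, the mean of a gene's probe sets, and leaving out each array. The cold step at other positions and 12g against 6g were added after seeing the data.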

Additional observations from a re-analysis of the deposited data

Results flagged for a closer look

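The response to 12g in the LDC differed between hypoxia and no constraint for 3 member probe sets by the interaction test of limma. The difference of log2 responses was 0.66 for Mlc2, 1.12 for Prm-a and -1.19 for up. The 12g arrays are of the second experiment in hypoxia and of the first without constraint, and none of the 3 passed with a term for the experiment.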

How the results depend on the processing

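Of the counts of members called, 328 stayed within 1.5 times under the alternatives that keep all arrays and 37 moved. The 328 include counts of 0 that stayed at 0. In the main fit 19 of 21 gravity comparisons had a count of 0. Fitting the compared groups alone gave 2 calls for the RPM cold step at 1g and 1 at 0g, 0 for the magnet cold step in open 1g containers and at 2g*, and 0 for LDC 6g in cold step and hypoxia, the LDC cold step in open 1g containers and the 12g interaction of hypoxia. For the cold step at 0g* in the magnet, quantile normalization, median centring, the filter on dim probe sets and the trend and robust spread each gave 1 call, and the last gave 2 at 1g*. Quantile normalization in the LDC gave 3 calls at 6g in cold step and hypoxia, 1 for closure at each temperature and 2 for the 12g interaction after the cold step. The term for the second experiment gave 0 calls at 12g in hypoxia, at 6g in cold step and hypoxia and in the 12g interaction of hypoxia, 3 for the cold step in open 1g containers, 1 for closure at each temperature, and 1 and 2 for 12g against 6g in hypoxia and in cold step and hypoxia. It reversed the interaction of Mlc2 to -0.0808.

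Same-numbered arrays deviated together, with a correlation over 0.1, in 4 of 10 pairs on the RPM, 6 of 18 in the magnet and 14 of 29 in the LDC, so numbers were not taken as pairs, except in LDC 1g-rot against 1g without constraint. The replicate block on the titles' numbers gave 1 call for the magnet cold step in open 1g containers, and in the LDC 4 at 6g in cold step and hypoxia, 2 for the 12g interaction after the cold step, and 1 each for 12g after the cold step, 12g against 6g in cold step and hypoxia and closure at constant temperature. The replicate block by array letter gave 1 call for that magnet cold step and, in the LDC, 3 for the cold step in open 1g containers, 0 for the 12g interaction of hypoxia, and 1 each for 12g in cold step and hypoxia, the 6g interaction after the cold step and 12g against 6g in both environments. The blocks moved no other count of calls by over 1.5 times.

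Leaving out 1 array gave 0 to 2 calls for RPM 0g without constraint, 2 to 8 for the RPM cold step, 0 to 2 for the magnet cold step in open containers and 0 to 1 in closed ones at 1g, 0g* and 2g*. In the LDC it gave 0 to 1 at 12g without constraint, 0 to 3 at 12g after the cold step, 1 to 3 at 12g in hypoxia, 0 to 1 at 6g in cold step and hypoxia, 0 to 3 for the cold step in open containers, 0 to 1 and 0 to 4 for closure at constant temperature and after the cold step, and 0 to 4 and 0 to 3 for the 12g interactions of hypoxia and after the cold step. Where that leaves 1 array in a group, it is assumed to vary like the others. Of the called fold changes, 124 values kept direction and call with all arrays, 35 kept direction only and 1 reversed. The cause of these shifts was not tested.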
